A study of Mus musculus with 6 samples.

Results

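The Mef2 genes of the mouse, Mef2a, Mef2b, Mef2c and Mef2d, were followed in RNA-seq of cultured RGCs, the neurons whose axons form the optic nerve. The members were taken by their mouse symbols, and all 4 were among the 43346 Ensembl genes in the tables and among the 15747 genes that were tested. By the growth protocol, RGCs had been purified from mouse pups by immunopanning on CD90.1 and grown in a medium with forskolin, BDNF and CNTF. They were transduced with AAV in 3 groups, named control, Sox11 and Sox11 K91A, the last carrying Sox11 with alanine in place of lysine 91, and each group had 2 libraries, 6 in all. The plasmids named in the study's methods carry EGFP in all groups, alone for control and behind an IRES for both Sox11 constructs. Every well held 250000 cells and was given 1.5 μl of virus at 4 h after plating, at about 100000 vg per cell. The medium was changed 5.5 and 24 h after the virus, and total RNA was extracted at 72 h after plating and used at 500 ng for each sample. The sources give the age of the cells as embryonic day 18 for RNA-seq, as postnatal day 2 in the growth protocol and as postnatal day 0 in the names of the tables, so the age is uncertain. The libraries are described as duplicates and nothing says that they came from separate cultures. The p-values therefore measure only the spread between these libraries, and the sources do not say whether it is technical.

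MEF2 proteins are transcription factors that bind A/T-rich DNA through a MADS-box and the adjoining MEF2 domain, and they act as homodimers or heterodimers of the family. In neurons calcium entry, calcineurin and MAP kinases switch them between repression, held by class IIa histone deacetylases such as HDAC4 and HDAC5, and activation of genes such as Arc and Bdnf. In injured RGCs, MEF2A is known as 1 of the transcription factors acting downstream of the stress kinases DLK and LZK, beside JUN, ATF2 and SOX11. Activity of MEF2 proteins is set largely by phosphorylation and cofactors, which RNA levels do not show.

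The libraries held between 27521982 and 37061718 counts. All 9 RGC markers were tested, and their summed level was 9550 and 10300 CPM (counts scaled to the library size) in the control libraries, 4000 and 6560 with Sox11, and 5270 and 6860 with Sox11 K91A, so the sum in both groups with a Sox11 construct lay below control. Most of that sum was Nefl (7090 and 6340 CPM in control, 2190 to 4330 elsewhere), and Thy1 and Slc17a6 were also below control in every such library. Isl1 was at 260 and 270 CPM in control and 268 to 289 elsewhere, Pou4f3 at 54.1 and 65.9 CPM against 64.8 to 86.0, Rbpms at 232 and 242 CPM against 194 to 232, and Pou4f1 at 428 and 369 CPM against 321 to 386. Sncg, at 757 and 915 CPM in control against 481 to 806, and Pou4f2, at 107 and 104 CPM against 79.8 to 119, overlapped control. In bulk RNA, fewer cells of a type and less RNA per cell cannot be told apart. Sox11 itself was at 283 ± 69.0 CPM in control (SD, n = 2), at 11900 ± 3830 with Sox11 and at 9500 ± 3500 with Sox11 K91A. Xist, transcribed from the inactive X chromosome of females, was at 95.9 CPM in control replicate 2 and at 254 in Sox11 replicate 2, and between 400 and 526 in the other 4 libraries. Ddx3y, the other gene read for sex, was at 17.7 and 30.0 CPM in control, 16.2 and 29.9 with Sox11, and 16.2 and 16.3 with Sox11 K91A. The replicates of control and of Sox11 thus differed in both genes, and those of Sox11 K91A differed little. Markers of microglia summed to at most 2.05 CPM, of photoreceptors to at most 4.59 CPM, of bipolar cells to at most 1.99 CPM, of cycling progenitors to at most 3.36 CPM and of pericytes or smooth muscle to at most 22.1 CPM in any library.

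Mef2c, which rose in both groups, and Mef2d, the member with the most G and C before its start, are shown by the 250 bases before a RefSeq transcription start (GRCm38.p6, plus strand, motif matches in capitals), so that the letters before each start can be read beside the levels that follow.

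Mef2c upstream start, chr13:83503784-83504033: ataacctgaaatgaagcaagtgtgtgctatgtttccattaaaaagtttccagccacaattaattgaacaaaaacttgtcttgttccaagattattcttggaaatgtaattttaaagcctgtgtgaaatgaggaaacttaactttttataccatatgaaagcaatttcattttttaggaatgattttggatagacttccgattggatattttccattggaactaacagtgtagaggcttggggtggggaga

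Mef2c downstream start, chr13:83573357-83573606: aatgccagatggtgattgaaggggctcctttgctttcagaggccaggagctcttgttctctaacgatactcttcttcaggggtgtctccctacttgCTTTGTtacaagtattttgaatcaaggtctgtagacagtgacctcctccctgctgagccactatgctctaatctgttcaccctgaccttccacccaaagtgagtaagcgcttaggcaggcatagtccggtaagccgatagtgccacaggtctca

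Mef2d start, chr3:88142122-88142371: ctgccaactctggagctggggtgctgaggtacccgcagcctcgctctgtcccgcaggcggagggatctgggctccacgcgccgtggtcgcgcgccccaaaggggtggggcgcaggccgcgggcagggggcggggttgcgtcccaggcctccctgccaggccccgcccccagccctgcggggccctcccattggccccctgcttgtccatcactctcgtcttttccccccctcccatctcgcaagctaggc

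The upstream Mef2c window held 33.6% G or C, less than nearly all of the 32851 windows in the table, of which 3.52% were lower, and the Mef2d window held 73.2%, with 94.3% of windows lower. The downstream Mef2c window held 49.6%, against a median of 52.4% over all windows. The window of Mef2a held 61.6%. Short motifs were searched on both strands over 300 bases, the 250 before and the 50 after each start, as literal matches that are a description and not a site. The letters ACAAAG, a core bound by SOX proteins, were found before the downstream Mef2c start on the opposite strand, where they read CTTTGT, at positions -154 to -149 from it, and also 31 to 36 bases after the upstream start, here with 10 bases on either side:

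Mef2c after the upstream start, chr13:83504054-83504079: gccagcactgACAAAGgtctggttgt

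ACAAAG occurred in 18.7% of all windows and ACAATG, a second SOX core, in 12.6%. No window of Mef2a, Mef2b or Mef2d held ACAAAG, nor did the remaining RefSeq window of Mef2c, and no window of the 4 genes held ACAATG. The MEF2 consensus site, which was in 3.19% of windows, was found at the start of Mef2a on the given strand, from 2 bases before to 8 bases after it:

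Mef2a start, minus strand, chr7:67372841-67372870: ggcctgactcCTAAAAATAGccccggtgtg

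Levels per transcript length ordered the family. Mef2a and Mef2d were the abundant members and Mef2b was near the limit of detection in every group. In TPM, a level that RSEM scales to depth and divides by transcript length, Mef2a was at 77.5 and 65.44 in the control libraries, at 61.5 and 59.26 with Sox11, and at 57.13 and 59.02 with Sox11 K91A. Mef2d was at 101.24 and 42.8 TPM in control, at 43.99 and 37.52 with Sox11, and at 40.35 and 43.94 with Sox11 K91A. Mef2c was at 2.44 and 1.5 TPM in control, at 4.24 and 3.86 with Sox11, and at 4.9 and 4.8 with Sox11 K91A. The order was Mef2a, Mef2d, Mef2c and Mef2b in 5 libraries, and Mef2d was above Mef2a in control replicate 1. In control the spread of Mef2d (72.0 ± 41.3 TPM, n = 2) covered that of Mef2a (71.5 ± 8.53), so these neighbours did not differ beyond their spread, whereas in both other groups every Mef2a value was above every Mef2d value. Mef2c lay below both of them and above Mef2b in each of the 6 libraries.

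**Figure D1:**
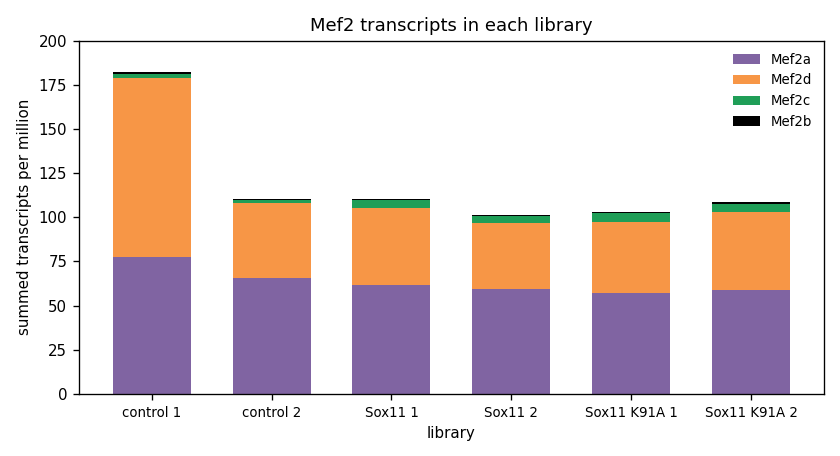
Stacked bars give the TPM of Mef2a, Mef2d, Mef2c and Mef2b in each of the 6 libraries, from 0. Control replicate 1 reached 182.34 TPM through Mef2d, and the other 5 libraries lay between 101.15 and 110.45.

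The 4 genes together summed to 182.34 and 110.45 TPM in control, to 110.26 and 101.15 in the Sox11 libraries, and to 103.11 and 108.43 with Sox11 K91A. Control replicate 1 stood alone, and control replicate 2 lay close to the 4 libraries with a Sox11 construct. The share of Mef2c in this sum was 1.34% and 1.36% in control, 3.85% and 3.82% with Sox11, and 4.75% and 4.43% with Sox11 K91A. Both control libraries lay below all others in this share, and the replicates within a group lay close together, although the total of the control libraries differed. The ratio of Mef2a to Mef2c was 31.8 and 43.6 in control, 14.5 and 15.4 with Sox11, and 11.7 and 12.3 with Sox11 K91A. With 2 libraries against 2, an exact two-sided permutation test of such a share or ratio cannot go below 0.333, so these are descriptions.

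Mef2c (ENSMUSG00000005583.12, GRCm38 chr13:83504034-83667080, plus strand), known for its part in the survival and synapse number of developing neurons, was the member that rose. Its level was 6.48 and 5.03 CPM in control, 11.6 and 10.1 CPM with Sox11, and 13.8 and 12.6 CPM with Sox11 K91A. Every library with a Sox11 construct was above both control libraries. Over all genes tested, 30.9% did not overlap and were higher with Sox11 and 31.2% with Sox11 K91A. The counts behind these levels were 181 and 194, 320 and 335, and 446 and 367. Mef2c rose 1.92-fold with Sox11 (log2 fold change 0.94, SE 0.235, 95% interval 0.38 to 1.49, limma-voom adjusted p = 0.0356) and 2.34-fold with Sox11 K91A (1.23, SE 0.228, 0.69 to 1.77, limma-voom adjusted p = 0.0266). The comparisons share their control libraries. They called 20.1% of genes in either direction with Sox11, 9.96% as higher, and 10.6% in either direction with Sox11 K91A, 5.81% as higher. The difference between Sox11 K91A and Sox11 was 0.29 (SE 0.205, interval -0.19 to 0.78, limma-voom adjusted p = 1.0). No gene was called in that comparison (0.0% of genes, 108 at an unadjusted p under 0.05), whereas edgeR called 0 and DESeq2 called 2. The size of the rise stayed between 0.73 and 1.4 when any library was left out, but the call with Sox11 was lost without any library other than control replicate 1, with an adjusted p of up to 0.13 in limma-voom, and the call with Sox11 K91A was lost without control replicate 2 (0.0778) or either Sox11 K91A library (0.274 and 0.098). On TPM, which uses transcript lengths, both calls were lost as well (adjusted p between 0.0648 and 0.0884, limma-trend).

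**Figure D2:**
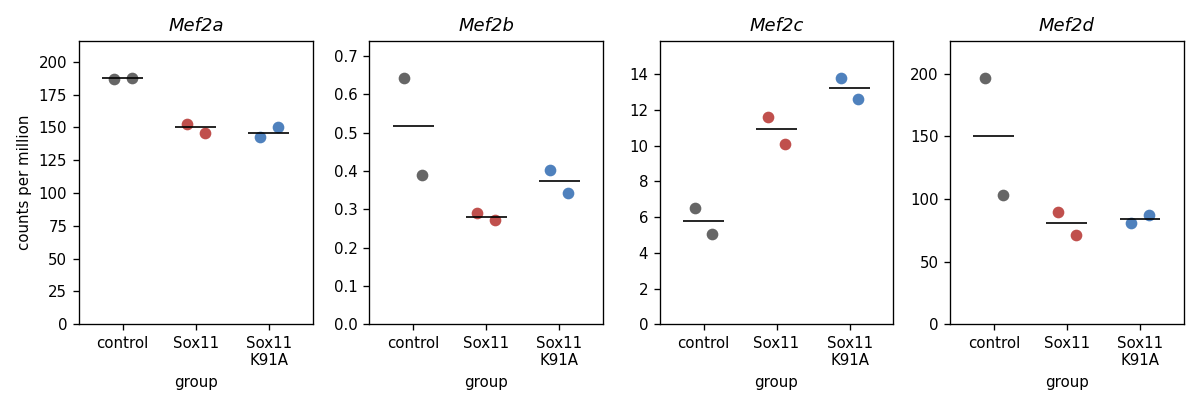
Points are the CPM of each library and lines the mean of the 2 libraries of a group, on linear axes from 0 that differ between genes. Mef2c is between 5.03 and 6.48 CPM in control and between 10.1 and 13.8 in the other groups, and Mef2d in control replicate 1 (197 CPM) stands above all other Mef2d values.

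RSEM divided no Mef2c read with another gene, since the spread it gives for that assignment was 0 in all 6 libraries. The authors' tables hold 3 Mef2c transcripts, a pair of 6217 and 6277 bases that starts at base 83504240, after the upstream window, and 1 of 3556 bases that starts at base 83573622, after the downstream one. The mean transcript length, which RSEM weights by abundance, was 5425 and 6219 bases in control, 5691 and 5500 with Sox11, and 5744 and 5299 with Sox11 K91A. If only these 3 transcripts are present, the short one would make up 29.8% to 31.3% of Mef2c in control replicate 1 and at most 2.14% in control replicate 2, 19.8% to 28.6% with Sox11, and 17.8% to 35.9% with Sox11 K91A. The groups overlapped in both measures. The levels of other transcripts of Mef2c in GENCODE M21, which lists 31, were not analysed here.

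Endothelial cells also transcribe Mef2c. The 6 endothelial markers summed to 5.58 and 4.02 CPM in control, 9.39 and 6.76 with Sox11, and 11.8 and 9.4 with Sox11 K91A, so they moved with Mef2c. Most of that sum was Kdr, and Cdh5 and Cldn5, which define endothelial cells, were under 1 CPM in every library, as was Flt1. Pecam1 was at 0.501 and 0.389 CPM in control and at 1.46 to 2.23 CPM elsewhere, and Tek at 0.143 and 0.104 CPM in control and at 0.573 to 1.33 CPM elsewhere, so both moved with Mef2c. Of the 6 markers of Müller glia or astrocytes, which summed to 102 and 108 CPM in control and to between 269 and 314 CPM elsewhere, nearly all was Glul (97.2 and 105 CPM in control, between 267 and 310 CPM in the other groups), while Gfap was at 0 and Aqp4 under 1 CPM. Their part in the level of Mef2c was not tested.

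Mef2a (ENSMUSG00000030557.12, chr7:67231163-67372858, minus strand), the member linked to the DLK pathway of RGC death, was at 187 and 188 CPM in control, 153 and 146 CPM with Sox11, and 143 and 150 CPM with Sox11 K91A. Both control libraries were above all others, while the Sox11 and Sox11 K91A libraries overlapped. Among all genes, 30.6% lay without overlap below control with Sox11 and 30.7% with Sox11 K91A. The control libraries differed by 0.00947 on the log2 scale, and 1.79% of genes tested had a smaller difference. The log2 fold change was -0.33 with Sox11 (SE 0.128, 0.799-fold, limma-voom adjusted p = 0.112) and -0.36 with Sox11 K91A (SE 0.128, 0.781-fold, limma-voom adjusted p = 0.115), so neither passed the threshold. DESeq2 called both, with adjusted p of 0.0484 and 0.0388. Between Sox11 K91A and Sox11 the difference was -0.03, with an interval from -0.33 to 0.27.

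Mef2d (ENSMUSG00000001419.13, chr3:88142372-88172086, plus strand), a broadly expressed member needed by photoreceptors, was at 197 and 103 CPM in control, 89.5 and 71.5 CPM with Sox11, and 80.6 and 87.6 CPM with Sox11 K91A. All 4 libraries with a Sox11 construct were below both control libraries. Of all genes tested, 30.6% lay without overlap below control with Sox11 and 30.7% with Sox11 K91A. For Mef2d, control replicate 1 was far above control replicate 2. Control replicate 2 minus control replicate 1 was -0.943 on the log2 scale, and 88.3% of genes tested had a smaller difference. The log2 fold change was -0.84 with Sox11 (SE 0.295, limma-voom adjusted p = 0.0854) and -0.77 with Sox11 K91A (SE 0.295, limma-voom adjusted p = 0.135), and neither passed the threshold. Without control replicate 1 the values were -0.36 and -0.29 (limma-voom adjusted p = 0.163 and 0.272), and without control replicate 2 they were -1.31 and -1.23 (0.0406 and 0.0571). With a block for the libraries low in Xist they were -0.83 and -1.08 (limma-voom adjusted p = 0.019 and 0.0195). The difference between Sox11 K91A and Sox11, 0.07 without the block, was -0.24 with it. No Sox11 K91A library was low in Xist, so with the block its comparison with control weighs control replicate 1, the library highest in Mef2d, more. DESeq2 called both (adjusted p = 0.0228 and 0.0479). The 6 amacrine cell markers, all above 1 CPM in some library, summed to 232 CPM in control replicate 1 and 95.9 in control replicate 2, to 112 and 37.5 in the Sox11 libraries, and to 96.0 and 103 in the Sox11 K91A libraries. Gad2 carried the largest share of the sum in control replicate 1 (140 CPM). Tfap2a, at 3.22 CPM there against 6.51 and 7.6 CPM in replicate 1 of Sox11 and of Sox11 K91A, and Tfap2b, at 11.0 CPM against 20.7 and 25.8, were not highest in control replicate 1. The summed markers and Mef2d were both highest in control replicate 1, and the part of these cells in the level of Mef2d was not tested.

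Mef2b (ENSMUSG00000079033.5, chr8:70139711-70167488, plus strand), best known in B cells, was at 0.644 and 0.389 CPM in control, 0.291 and 0.271 with Sox11, and 0.403 and 0.343 with Sox11 K91A. Both control libraries were above both Sox11 libraries, as for 30.6% of all genes tested, and control and Sox11 K91A overlapped. These levels rest on 8 to 18 counts per library, and RSEM gave the assignment of its reads a spread of up to 2.47 counts. The genes that shared these reads were not looked up. In GENCODE M21 the gene span overlaps Borcs8 on the same strand, but the 4 Mef2b transcripts in the tables start after the end of Borcs8. The log2 fold changes were -0.76 (SE 0.607) with Sox11 and -0.37 (SE 0.577) with Sox11 K91A, with limma-voom adjusted p of 0.4 and 0.716. The intervals ran from -2.2 to 0.68 and from -1.73 to 1.0, so that no difference was detectable at this depth.

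**Figure D3:**
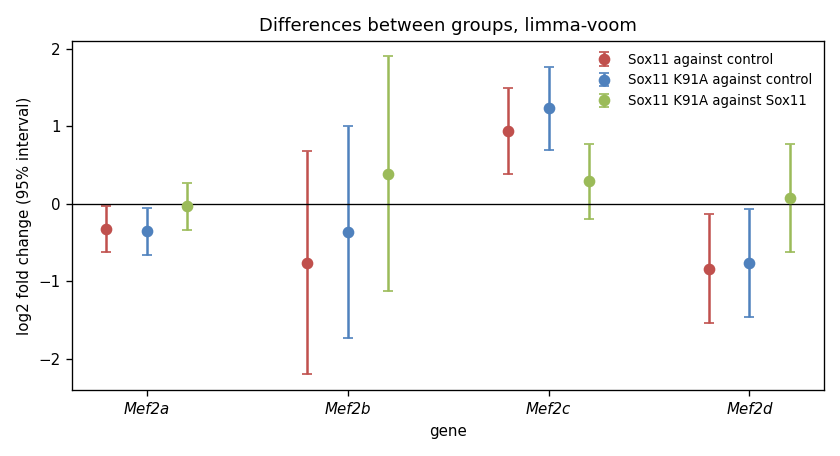
Points are limma-voom log2 fold changes of the 4 genes in the 3 comparisons, and bars are 95% intervals. Only the intervals of Mef2c lie above 0 in both comparisons with control, those of Mef2a and Mef2d lie below 0, and all intervals between Sox11 K91A and Sox11 hold 0. The intervals are not adjusted for the number of genes tested. After adjustment Mef2a and Mef2d passed the threshold in neither comparison with control.

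Across the 6 libraries, log2 CPM of Mef2a and Mef2c ran against each other (Pearson r = -0.95), Mef2b and Mef2d together (0.91), and Mef2a and Mef2d together (0.79). Over the 12375 genes with a mean of at least 1 CPM, the 3 most like Mef2c were Ankrd13b (r = 0.9963), Foxp4 (0.9943) and Pmfbp1 (0.9938), and 274 genes had an r above 0.95. The 3 most like Mef2a were Camk2n2 (0.9985), an inhibitor of CaMKII, Maneal (0.9975) and Tmem191c (0.9972), among 730 genes above 0.95. Camk2n2 was at 140 and 139 CPM in control and between 67.4 and 83.5 elsewhere. The 3 most like Mef2d were Sh2b1 (0.9972), the sodium channel gene Scn8a (0.9972) and the calcium pump gene Atp2a2 (0.9963), all highest in control replicate 1, where Scn8a was at 197 CPM against 98.3 in control replicate 2. Those most like Mef2b were Szrd1 (0.9824), Grid1 (0.9824) and Galnt18 (0.9809). All points share 6 libraries in 3 groups, so genes that differ between the groups resemble each other, and with Mef2b at low counts its likeness is weak.

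Most regulators of MEF2 proteins were not called (35 of 44 with Sox11 and 38 of 44 with Sox11 K91A), and the calls were near the share over all genes, 20.1% and 10.6%. Of the 44 genes, all tested, 5 rose and 4 fell with Sox11, against 9.96% of all genes called as higher and 10.2% as lower, and 3 rose and 3 fell with Sox11 K91A, against 5.81% and 4.81%. The list median was -0.14 and -0.10 on the log2 scale, beside 0.01 and 0.02 for all genes. Map2k6, which activates p38 and so MEF2, rose 6.63-fold with Sox11, from 3.66 ± 0.548 to 24.6 ± 10.1 CPM, and 5.72-fold with Sox11 K91A to 20.9 ± 5.53 CPM (n = 2 each, limma-voom adjusted p = 0.0145 and 0.0251). Its relative Map2k3 fell, from 18.3 ± 3.05 CPM to 9.31 ± 0.401 and 8.06 ± 1.21 CPM (log2 fold change -0.97 and -1.2, limma-voom adjusted p = 0.0269 and 0.0266). Camk1g, a calcium/calmodulin-dependent kinase, rose 2.63-fold and 2.57-fold (limma-voom adjusted p = 0.0161 and 0.0241), whereas Camk1 fell, with log2 fold changes of -1.08 and -0.94 (limma-voom adjusted p = 0.0235 and 0.0455). Camk2b fell with Sox11 (-0.82, limma-voom adjusted p = 0.0419). Without Sox11 replicate 2 no gene at all was called with Sox11, and without control replicate 2 none was called with Sox11 K91A. No regulator was called with Sox11 K91A without Sox11 K91A replicate 1 either, and 12 were without control replicate 1.

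Among the class IIa deacetylases, which hold MEF2 in repression, Hdac7 rose from 22.2 ± 4.36 CPM to 36.4 ± 1.44 with Sox11 and 41.8 ± 6.93 with Sox11 K91A (1.68-fold and 1.91-fold, limma-voom adjusted p = 0.0423 and 0.0337). Hdac5 was at 280 ± 65.6, 252 ± 12.9 and 262 ± 4.01 CPM and did not pass the test (log2 fold change -0.14 and -0.08). Hdac4 was at 46.5 ± 4.91, 49.5 ± 5.91 and 46.0 ± 3.6 CPM. Hdac9 had log2 fold changes of -0.70 and -0.46 with SE of 0.397 and 0.39, and did not pass. Of the calcineurin inhibitors, Rcan2 rose 1.65-fold with Sox11 (limma-voom adjusted p = 0.046) and Rcan3 fell with both, by 0.937 on the log2 scale with Sox11 and by 0.821 with Sox11 K91A. Pias1, a SUMO ligase that acts on MEF2, rose 1.49-fold with Sox11 (limma-voom adjusted p = 0.036).

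**Figure D4:**
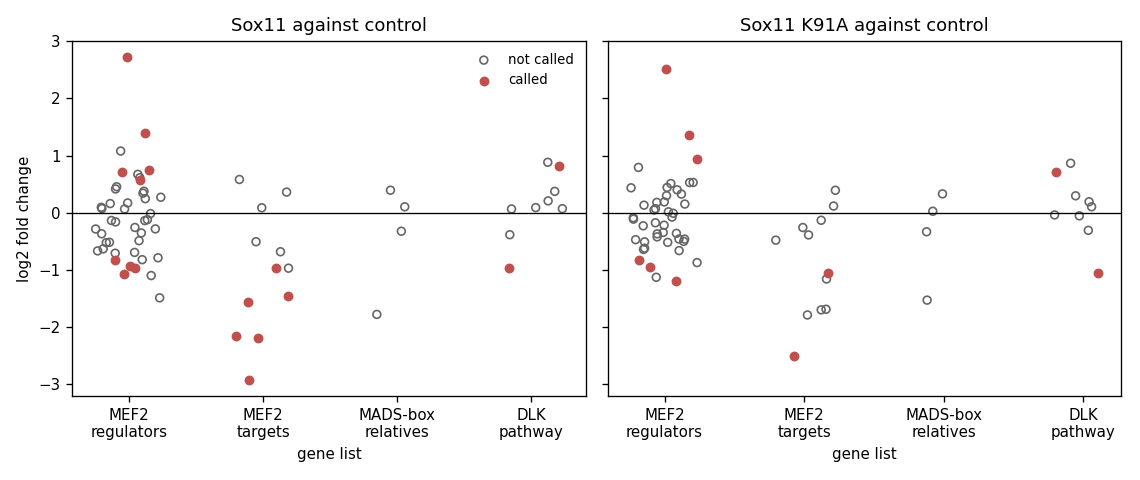
Each point is the log2 fold change of a gene of 4 lists, with Sox11 (left) and with Sox11 K91A (right), filled where the gene passed the test, and with the transduced gene Sox11 left out. Among MEF2 targets, 6 filled points lie below 0 on the left and 2 on the right, and none lies above.

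Genes known as targets of MEF2 lay low. Of 12, all tested, none rose and 6 fell with Sox11, and none rose and 2 fell with Sox11 K91A, whereas 10.2% and 4.81% of all genes were called as lower. The list medians were -0.97 and -0.77 on the log2 scale, beside 0.01 and 0.02 for all genes. Several of them are also immediate early or activity-induced genes that other factors drive. Arc, a synaptic gene induced by activity, fell from 17.9 ± 4.65 CPM to 3.92 ± 0.169 with Sox11 and to 3.18 ± 0.501 with Sox11 K91A (log2 fold change -2.19, SE 0.299, and -2.5, SE 0.314, limma-voom adjusted p = 0.0121 and 0.0147). Jun fell from 257 ± 26.1 CPM to 132 ± 13.4 and 126 ± 38.4 CPM (-0.96 and -1.05, limma-voom adjusted p = 0.0309 and 0.0357). Bdnf, which encodes a neurotrophin that was also in the medium as protein, fell with Sox11 (-2.16, SE 0.525, limma-voom adjusted p = 0.0333) and stood at -1.79 with Sox11 K91A without passing (0.0711). Klf2 fell with Sox11 (-2.93, limma-voom adjusted p = 0.0396), where it was at 2.03 ± 2.23 CPM, a spread as wide as the mean. Ppargc1a, a regulator of mitochondria, and Klf4 also fell with Sox11 (-1.56 and -1.45), and with Sox11 K91A stood at -1.16 and -1.69 (limma-voom adjusted p = 0.0904 and 0.0502). The 6 others, among them Nr4a1, Homer1, Pcdh10 and Ube3a, passed in neither comparison, and Homer1 (0.36) and Ube3a (0.09) were above 0 with Sox11. Without Sox11 replicate 2 no target was called with Sox11, without control replicate 1 there were 2, and without control replicate 2 or Sox11 K91A replicate 1 none was called with Sox11 K91A.

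Of the partners of MEF2A downstream of DLK, Jun fell as above, and Atf2 was at 88.7 ± 2.34, 93.2 ± 5.11 and 86.4 ± 2.24 CPM and did not pass the test in either comparison. In this list of 10 genes 2 rose, Sox11 and Mapk8, and 1 fell, Jun, in both comparisons. Sox11 was the transduced gene, so its rise was set by the design. Only Mapk8 and Jun can be set beside the 20.1% and 10.6% of all genes called in either direction. The calls in this list changed when single libraries were left out. Mapk8, the gene of JNK1, rose 1.76-fold with Sox11 and 1.63-fold with Sox11 K91A, from 98.3 ± 0.54 to 174 ± 16.6 and 161 ± 0.161 CPM (limma-voom adjusted p = 0.0146 and 0.0277). Map3k12, which encodes DLK, was at -0.39 and -0.31, and Map3k13, which encodes LZK, at 0.88 and 0.87 on the log2 scale, and neither passed the test. Of the 4 MADS-box relatives none passed in either comparison, with Srf at -0.32 and -0.33. Between Sox11 K91A and Sox11 no gene of these lists was called.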

How the data were processed

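Per the study's methods the reads were mapped with STAR (mouse build mm10) and RSEM gave counts for each gene. The authors deposited 1 table per library with the expected count, the TPM and the mean transcript length of each gene. Versions, annotation and use of strand are not given in the sources used here. The expected counts were not all whole numbers. Symbols came from GENCODE M21, which named 98% of the 43346 Ensembl genes. Expected counts were rounded and filtered with filterByExpr over the 3 groups. Libraries were scaled by TMM (edgeR 4.0.16, factors 0.985 to 1.04) and tested with limma-voom (limma 3.58.1, R 4.3.3) on all 6 libraries in a single fit with Benjamini-Hochberg adjustment over the 15747 genes. The thresholds for a call were 0.05 on the FDR and 1.2 on the absolute fold change. CPM use TMM-scaled library sizes, errors are SD over 2 libraries unless SE is named, and adjusted p are two-sided. Intervals of 95% come from the same fit and are not adjusted for the number of genes. The test was checked on simulated counts.

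The 4 members, the gene lists and the test were chosen with earlier results of these data known. Named from each list are up to 4 genes called in each direction and comparison, the class IIa deacetylases, Jun, Atf2, Sox11 and Srf, and some other list members are named to account for their list, while the values of some are not reported here. For each member the 3 genes of highest Pearson r of log2(CPM + 0.1) are named, among genes of at least 1 CPM on average. Alternatives were edgeR's quasi-likelihood test, DESeq2 1.42.0, its size factors, library size alone, filters of at least 1 count in all or 10 in every library, the replicate block, a fit of only the 2 groups compared, sample quality weights, each library left out, a block for libraries low in Xist, counts without rounding, TPM with pseudocounts of 1 and 0.1, and a fold change above 1.5. A crossed block was chosen after seeing the data. Promoter windows are from RefSeq (GRCm38.p6), and all 4 genes matched.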

Additional observations from a re-analysis of the deposited data

How the results depend on the processing

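No log2 fold change of a Mef2 gene against control changed sign in the alternatives run for it. Mef2b was not tested with the filter of 10 counts in every library, and the crossed replicate block was run for counts of calls only. Apart from the fits with 1 library left out, Mef2c lost its call with Sox11 when all genes with at least 1 count were kept (0.932, limma-voom adjusted p = 0.0519). It also lost it with only the 2 groups compared (0.938, limma-voom adjusted p = 0.0884) and with sample quality weights (0.927, limma-voom adjusted p = 0.0877). On log2(TPM + 1) or log2(TPM + 0.1) the call was lost as well (0.783 and 1.04). Of these settings, only TPM lost the call with Sox11 K91A (0.996 and 1.3). DESeq2 called Mef2a (-0.334 and -0.366) and Mef2d (-0.911 and -0.847). The block for libraries low in Xist, which held no Sox11 K91A library, called Mef2d (-0.832 and -1.08) and turned its difference between Sox11 K91A and Sox11 to -0.244. The cause was not tested.

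Leaving out 1 library gave values with Sox11 from 0.732 to 1.1 for Mef2c and from -1.31 to -0.362 for Mef2d, and with Sox11 K91A from 1.03 to 1.4 for Mef2c. Between Sox11 K91A and Sox11, Mef2a ranged from -0.0649 to 0.0146 (0.00329 without Sox11 K91A replicate 1) and Mef2d from -0.09 to 0.247. The number of genes called went from 0 to 3753 with Sox11 (0 without Sox11 replicate 2) and from 0 to 2563 with Sox11 K91A (0 without control replicate 2 and 19 without Sox11 K91A replicate 1). Calls among MEF2 regulators went from 0 to 13 and 0 to 12, among targets from 0 to 5 and 0 to 4, and in the DLK list from 0 to 4 in both.

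The fit of 2 groups called 1598 genes with Sox11, 4 regulators and 3 targets, and 1732 genes and 4 targets with Sox11 K91A. Quality weights called 979 genes with Sox11, 0 regulators and 1 target, and 1400 genes, 2 regulators and 1 target with Sox11 K91A. The block for libraries low in Xist called 4562 genes, 16 regulators and 1 MADS-box relative with Sox11. With Sox11 K91A it called 2894 genes, 13 regulators, 8 targets and 1 MADS-box relative. DESeq2 called 4345 genes and 18 regulators with Sox11. With Sox11 K91A it called 3144 genes, 10 regulators and 4 targets, and between Sox11 K91A and Sox11 it called 2 genes.

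The deviations of libraries with the same number from their groups had correlations of 0.259 (control and Sox11), -0.0448 (control and Sox11 K91A) and -0.282 (Sox11 and Sox11 K91A). These values do not settle whether the numbers pair the samples. Xist and Ddx3y set replicate 2 of control and of Sox11 apart, but not that of Sox11 K91A. The replicate block gave 2679 genes called with Sox11 and 1402 with Sox11 K91A, Mef2c at 0.928 and 1.21 (limma-voom adjusted p = 0.0449 and 0.0312), and no other call of a Mef2 gene. A crossed replicate block, chosen after seeing the data, called 4076 and 2753 genes, with 15 regulators for Sox11 and 6 targets for Sox11 K91A.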
